A study of Mus musculus with 6 samples.

Results

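The 78 protein-coding genes named *Mrpl* or *Mrps* followed by a number, which encode the proteins of the mitochondrial ribosome (mitoribosome), were compared between WT and IG27 glial cells. The rule uses the symbol alone, and it took 49 for the large subunit (*Mrpl*) and 29 for the small subunit (*Mrps*), out of 22911 genes that had a probe named through its RefSeq accession. These genes had 101 probes, and 6 further symbols of the same form are pseudogenes with no probe named here. Of the 78 genes, 77 had a probe that was well above background and were tested. *Mrpl35* was not tested, because its 1 probe was well above background on 0 of the 5 arrays that carry this flag.

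RNA was measured on 6 single-color Agilent mouse arrays, 3 of WT cells and 3 of IG27 cells. Both lines were OS3, SV40-immortalized glial cells from the brain of male C3H mice (newborn C3H/HeN in the study's methods). WT cells carried the empty vector and IG27 cells carried an *H3f3a* K27M plasmid, which makes histone H3.3 with methionine in place of the lysine at residue 27. Each array held RNA of its own dish after 2 days in MEM-α with insulin, 0.2% glucose and serum (10%). The study established several clones by drug selection after plasmid transfection, and which of them gave these dishes is not stated. The p-values therefore measure the spread between dishes of each line, and a difference between clones cannot be told apart from an effect of the histone. The *H3f3a* probe itself read slightly lower in IG27 cells (log2 fold change -0.26, SE 0.08, adjusted p = 0.0237 from limma), and whether it lies within the transfected sequence is not given, so it checks no label. Of the astrocyte markers 5 of 6, and of the oligodendrocyte lineage markers 7 of 8 in WT cells and 8 of 8 in IG27 cells, were well above background on every array of the group that carries the flag. The astrocyte marker that was not was *Slc1a3* in WT and *Aqp4* in IG27 cells. Of the microglial markers 3 of 6 in WT and 4 of 6 in IG27 cells were so, and *Cx3cr1* and *Ptprc* were in neither group. The same held for 2 and 3 of 5 neuronal, 1 and 2 of 5 endothelial and 2 and 3 of 4 fibroblast markers in WT and IG27 cells.

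The mitoribosome is the ribosome of the mitochondrial matrix, and it makes the respiratory chain and ATP synthase subunits that are encoded by mitochondrial DNA. Its RNAs come from mitochondrial DNA, whereas all its proteins are encoded in the nucleus, made in the cytosol and imported. Some of these proteins descend from those of bacterial ribosomes and others are found only in mitochondria, and many of their promoters carry sites for the ETS factor GABP, NRF1 and YY1.

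A number of mitoribosomal genes start close to a gene on the other strand, so that both are transcribed away from a shared stretch of DNA. The bases strictly between the starts are shown for 4 such pairs whose values are given below. *Mrpl46* and *Mrps11* are both mitoribosomal, *Mrpl43* rose with its partner *Twnk*, *Mrpl57* fell with its partner *Ska3*, and *Mrps27* rose while its partner *Ptcd2* did not pass the test. Sequences are from RefSeq on GRCm38.p6, read 5′ to 3′ toward the start of the mitoribosomal gene, and capitals mark matches to the ETS or GABP core CCGGAAG on either strand.
*Mrpl46* with *Mrps11*, chr7:78783090-78783130, minus strand: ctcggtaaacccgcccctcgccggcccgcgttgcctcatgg
*Mrpl43* with *Twnk*, chr19:45006443-45006557, minus strand: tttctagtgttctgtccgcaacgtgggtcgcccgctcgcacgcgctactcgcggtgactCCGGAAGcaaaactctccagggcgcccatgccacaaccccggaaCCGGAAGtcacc
*Mrpl57* with *Ska3*, chr14:57826164-57826238, plus strand: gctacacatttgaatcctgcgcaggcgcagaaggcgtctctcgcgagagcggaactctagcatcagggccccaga
*Mrps27* with *Ptcd2*, chr13:99344679-99344785, plus strand: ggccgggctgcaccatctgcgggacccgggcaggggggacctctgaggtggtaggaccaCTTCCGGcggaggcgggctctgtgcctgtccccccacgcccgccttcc
The *Mrpl43* stretch holds 2 matches and the *Mrps27* stretch holds 1, on the reverse strand. The other 2 stretches hold none of the 3 motifs searched.

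Mitoribosomal genes differed between the lines in both directions, mostly by small amounts. Of the 77 tested, 23 were higher in IG27 cells, 30 were lower and 24 did not pass the test (limma, adjusted p under 0.05). Among all 14899 genes tested, 30.5% were higher, 40.0% were lower and 70.5% were called in either direction, so the 68.8% called among mitoribosomal genes lay close to the background. The arrays of the groups did not overlap for 59 of the 77 genes, and for 75.7% of all genes. Among mitoribosomal genes 5 (6.49%) differed by more than 2-fold, beside 23.5% of all genes, and 14 (18.2%) by more than 1.5-fold, beside 42.1%. All 5 of those beyond 2-fold, *Mrpl3*, *Mrps16*, *Mrpl57*, *Mrps25* and *Mrpl52*, were lower in IG27 cells. The median log2 fold change was -0.09, beside -0.07 for all genes.

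The calls of both subunits are given beside those of all genes, of which 30.5% were higher and 40.0% lower. In the large subunit 16 genes were higher, 16 were lower (33.3% each) and 16 did not pass the test, with a median log2 fold change of -0.01 and a range of -1.99 to 0.77. In the small subunit 7 were higher (24.1%), 14 were lower (48.3%) and 8 did not pass, with a median of -0.15 and a range of -1.24 to 0.64. The difference between the subunits is a description and was not tested. Under quantile normalization 21 were higher and 13 lower in the large subunit and 8 higher and 10 lower in the small subunit, beside 5031 higher and 5791 lower of all genes. The medians were then 0.10 and -0.02, and the median of all genes moved from -0.07 to -0.05. *Mrps18a* and *Mrps30* are known to sit in the large subunit despite their names. Moving them there gave 17 higher and 16 lower of 50 in the large subunit. The small subunit then had 6 higher and 14 lower of 27, and these still include *Mrps36*, whose place is given below.

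**Figure D1:**
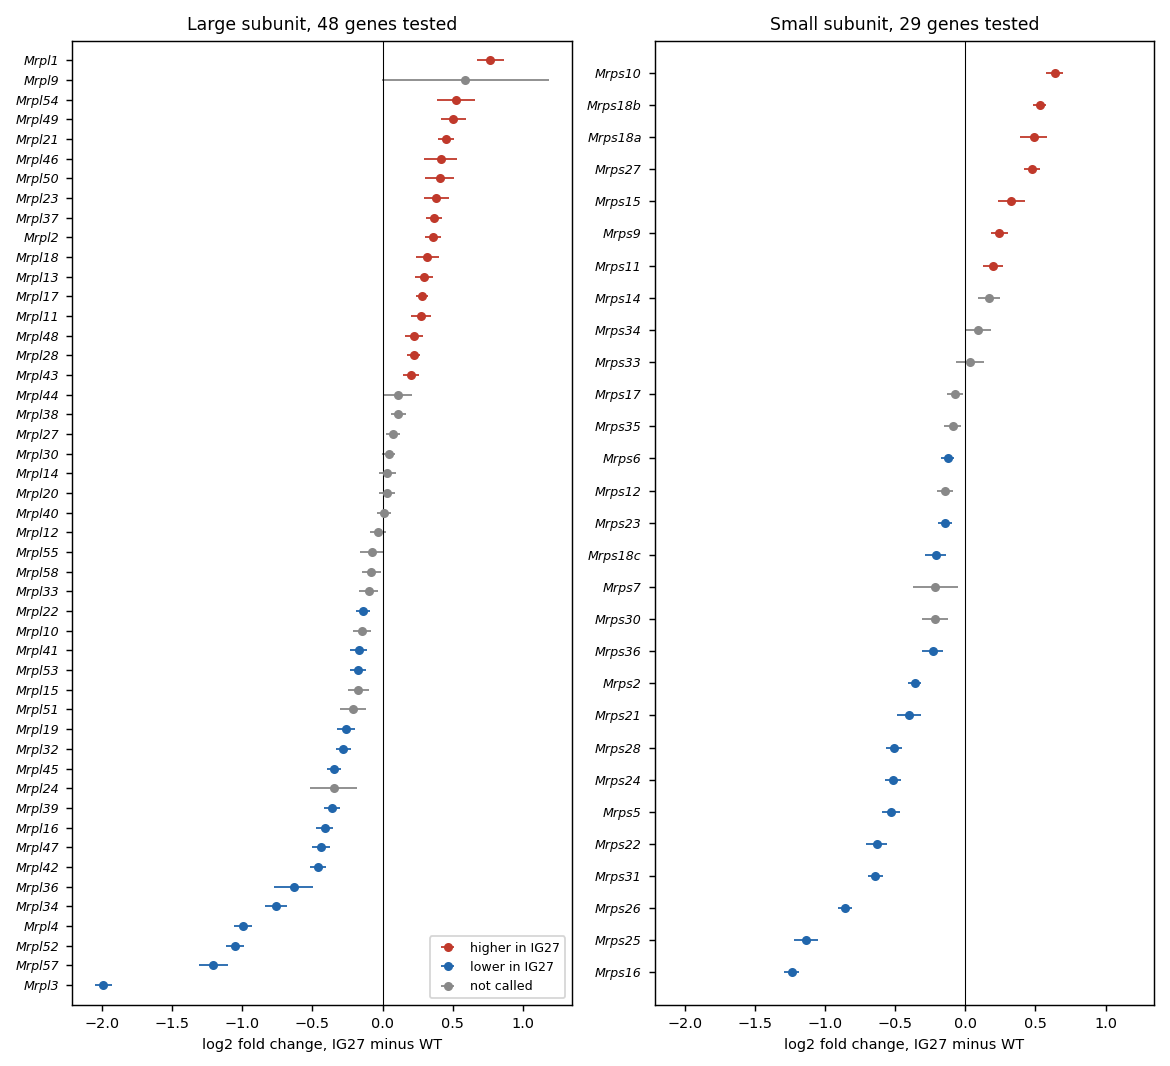
Log2 fold change of each tested mitoribosomal gene (IG27 minus WT, horizontal axis), sorted within the large subunit (left, 48 genes) and the small subunit (right, 29 genes). Points are the limma estimates from 3 arrays a group and bars are standard errors, colored by the call at an adjusted p under 0.05; the falls reach -1.99 for *Mrpl3* while the largest called rise is 0.77 for *Mrpl1*, and the bar of *Mrpl9* is far wider than the rest.

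The core of the large subunit, where peptide bonds are formed, held the largest difference of all. *Mrpl3*, a core protein near the peptidyl transferase center, read 5.10, 5.02 and 5.19 in WT 1 to 3 and 3.09, 3.07 and 3.16 in IG27 1 to 3 (log2 intensity minus the 75th percentile of the array, as for all values below). WT cells were 3.98-fold above IG27 cells (log2 fold change -1.99, SE 0.06, adjusted p = 1.15e-06 from limma), with no overlap. *Mrpl4*, which lines the exit tunnel for the new peptide, read 5.05, 5.01 and 5.07 in WT cells and 4.14, 4.05 and 3.95 in IG27 cells, where it was 1.99-fold lower (SE 0.06 on the log2 scale). *Mrpl16* of the same region was lower by a log2 fold change of -0.41, *Mrpl2* was higher by 0.36 and *Mrpl27* was at 0.08 and did not pass the test. Of these 5 core genes, 3 were lower and 1 was higher, with a median of -0.41.

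Other large subunit proteins with a bacterial counterpart went both ways. *Mrpl34* and *Mrpl36*, both small proteins that pack against ribosomal RNA, were lower in IG27 cells, with log2 fold changes of -0.76 (SE 0.08) and -0.64 (SE 0.14). *Mrpl36* was the less even of the pair, since WT 1 read 4.22 against 3.76 and 3.80 in WT 2 and 3. *Mrpl1*, the protein of the mobile stalk beside the exit site for tRNA, was the largest called rise: it read 1.26, 1.06 and 1.41 in WT cells and 2.03, 1.97 and 2.04 in IG27 cells (log2 fold change 0.77, SE 0.09, adjusted p = 4.42e-04 from limma). A second *Mrpl1* probe gave 0.80. *Mrpl21* was also higher, at 2.70, 2.69 and 2.82 in WT cells and 3.21, 3.14 and 3.22 in IG27 cells (log2 fold change 0.45, SE 0.06). The 3 genes of the stalk that recruits translation factors showed little change, with *Mrpl11* higher by 0.28 and *Mrpl10* and *Mrpl12* not passing the test.

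Of the 19 tested genes for large subunit proteins found only in mitochondria, 7 were higher and 7 were lower (36.8% each). Their median was 0.01, and 30.5% of all genes were higher and 40.0% lower. These 19 included 2 of the largest falls. *Mrpl57* read 6.17, 5.87 and 6.20 in WT cells and 4.96, 4.81 and 4.84 in IG27 cells, 2.31-fold lower in IG27 cells (log2 fold change -1.21, SE 0.10, adjusted p = 8.49e-05 from limma). *Mrpl52* read 5.95, 5.94 and 5.99 in WT cells and 5.02, 4.84 and 4.86 in IG27 cells (log2 fold change -1.05, SE 0.06). *Mrpl54*, *Mrpl49*, *Mrpl46* and *Mrpl50* were higher, with log2 fold changes of 0.52, 0.50, 0.41 and 0.41 and standard errors of 0.09 to 0.14. In *Mrpl54* and *Mrpl46*, WT 1 was the lowest array, at 3.54 against 3.90 and 4.07 and at 1.12 against 1.49 and 1.54, and without it the rises were 0.38 and 0.29 and still called. Without IG27 1 neither passed the test (adjusted p = 0.053 and 0.0652 from limma), nor did *Mrpl46* without IG27 3 (adjusted p = 0.0524).

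The lists by position in the large subunit are small, and differences between positions were not tested. For comparison, 30.5% of all genes were higher and 40.0% were lower. In the central protuberance, the knob at the top of the subunit, 3 of the 6 genes were higher (*Mrpl18*, *Mrpl46* and *Mrpl48*) and 0 were lower. The median of these 6 was 0.17, and they include *Mrps30*, the lowest at -0.22, which did not pass the test. Of the 8 genes around the exit site, where the new peptide meets the inner membrane, 2 were higher (*Mrpl17* and *Mrpl23*) and 4 were lower (*Mrpl22*, *Mrpl39*, *Mrpl45* and *Mrpl47*), with a median of -0.24. *Mrpl45*, which anchors the mitoribosome to the membrane, was among the lower ones at -0.35 (SE 0.05). *Mrpl58*, a hydrolase that releases stalled peptides, was at -0.08 (95% interval -0.25 to 0.09) and did not pass the test. Its sign depended on the scaling, since quantile normalization gave 0.05.

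**Figure D2:**
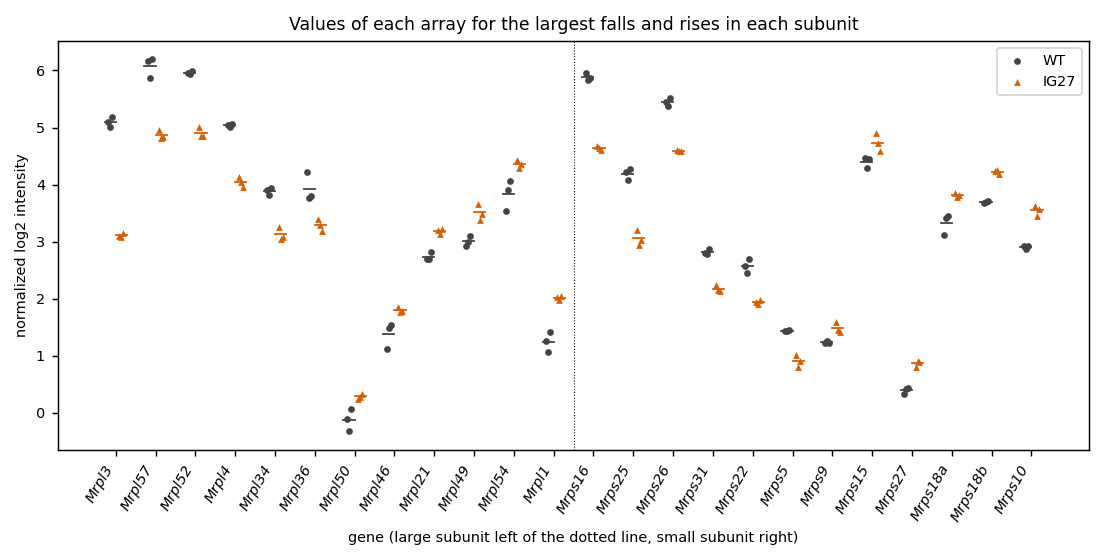
Value of every array (normalized log2 intensity, vertical axis) for the 6 largest called falls and rises in each subunit, with WT arrays as gray circles, IG27 arrays as orange triangles and group means as lines. The groups do not overlap in any of the 24 genes, which were chosen for this, and heights cannot be compared between genes; *Mrpl3* drops from a mean of 5.10 to 3.11.

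In the small subunit the largest falls included proteins with and without a bacterial counterpart. *Mrps16*, a protein of bacterial descent whose loss is known to cause a respiratory chain disorder, read 5.95, 5.84 and 5.86 in WT cells and 4.68, 4.64 and 4.61 in IG27 cells. It was 2.36-fold lower in IG27 cells (log2 fold change -1.24, SE 0.05, adjusted p = 4.15e-06 from limma). *Mrps25*, found only in mitochondria, read 4.22, 4.09 and 4.27 in WT cells and 3.20, 2.94 and 3.04 in IG27 cells (log2 fold change -1.13, SE 0.09). *Mrps26* read 5.46, 5.38 and 5.51 against 4.60, 4.58 and 4.59 (log2 fold change -0.86, SE 0.05). *Mrps31* and *Mrps22*, also without a bacterial counterpart, were at -0.64 (SE 0.05) and -0.63 (SE 0.07), and a second probe of *Mrps22* gave -0.68. *Mrps5*, which lines the channel where mRNA enters, was at -0.53 (SE 0.06), and its second probe was at -0.29 and not called (adjusted p = 0.0799 from limma). Of the 11 genes with small subunit names counted as found only in mitochondria, 6 were lower (54.5%) and 1 was higher (9.09%). Their median was -0.22. These 11 follow the symbols, so they include *Mrps30* and *Mrps36*, whose proteins belong elsewhere, as given below. Of the 18 with a bacterial counterpart 8 were lower (44.4%) and 6 were higher (33.3%), with a median of -0.13. Among all genes 40.0% were lower and 30.5% were higher.

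The highest rise in the small subunit was *Mrps10*, a protein of the head of the subunit, which read 2.92, 2.87 and 2.93 in WT cells and 3.62, 3.45 and 3.57 in IG27 cells. It was 1.56-fold higher in IG27 cells (log2 fold change 0.64, SE 0.06, adjusted p = 1.41e-04 from limma). *Mrps27*, a pentatricopeptide repeat protein that binds mitochondrial RNA, was the 1 called rise among the 11 genes found only in mitochondria. It read 0.34, 0.41 and 0.44 in WT cells and 0.81, 0.91 and 0.89 in IG27 cells (log2 fold change 0.47, SE 0.06). *Mrps15* and *Mrps9*, both of bacterial descent, were higher by 0.33 (SE 0.10) and 0.24 (SE 0.06). A second *Mrps9* probe was at 0.10 and not called (adjusted p = 0.316 from limma), and the mean of its probes did not pass. *Mrps15* did not pass without WT 2 or without IG27 2. Among the 5 genes of the decoding region and mRNA channel, *Mrps11* was higher, *Mrps5* and *Mrps24* were lower, and *Mrps7* and *Mrps12* did not pass the test.

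Of the 3 paralogs of bacterial protein S18, 2 were called higher and 1 lower. *Mrps18b* read 3.68, 3.69 and 3.71 in WT cells and 4.25, 4.25 and 4.19 in IG27 cells (log2 fold change 0.53, SE 0.05, adjusted p = 8.71e-05 from limma), and its second probe gave 0.50. *Mrps18a*, whose protein sits in the large subunit, was higher by 0.49 (SE 0.10), with WT 1 low at 3.11 against 3.41 and 3.45. *Mrps18c* was lower at -0.21 (SE 0.08, adjusted p = 0.0472 from limma), close to the threshold and not passed when any array but WT 2 was left out. Its second probe was at -0.16 and not called, and under quantile normalization it was at -0.05 and did not pass (adjusted p = 0.512 from limma). *Mrps30*, the other small subunit name in the large subunit, was at -0.22 (SE 0.09, 95% interval -0.45 to 0.01) and did not pass. *Mrps36*, now known as a subunit of the alpha-ketoglutarate dehydrogenase complex rather than of the ribosome, was lower at -0.23 (SE 0.07, adjusted p = 0.0309 from limma), and under quantile normalization it was at -0.07 and did not pass (adjusted p = 0.314).

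A few genes had an array or a probe that stood apart, and they were picked out after their values were seen. For *Mrpl9*, WT 1 read 0.53 while WT 2 and 3 both read 2.71 and IG27 cells read 2.54, 2.44 and 2.74. The log2 fold change of 0.59 (SE 0.60) did not pass the test, a second probe gave -0.10, and without WT 1 the value was -0.14 (adjusted p = 0.275 from limma). For *Mrps7*, WT 1 read 3.82 against 4.32 and 4.41, and the value of -0.21 became -0.40 and called without it (adjusted p = 0.00588 from limma). With all arrays a second *Mrps7* probe was called lower at -0.30 (adjusted p = 0.016 from limma). The mean of the *Mrps7* probes was -0.26 and passed (adjusted p = 0.0132 from limma). For *Mrpl24*, IG27 2 read 3.36 against 4.01 and 3.87, and flags for outlier spots were lacking on that array. The value of -0.35 did not pass. Without IG27 2 it was -0.16 and did not pass (adjusted p = 0.0943 from limma), and without IG27 1 it was -0.48 and passed (adjusted p = 0.0495). Another, dim probe of *Mrps33* was called lower at -0.55 while its brightest probe was at 0.03. WT 1 lay more than 0.3 below the median of its group for 5 of the 77 genes (*Mrpl9*, *Mrpl46*, *Mrpl54*, *Mrps7* and *Mrps18a*) and above it for 1, whereas the other 5 arrays together did so for 2. A further probe passed the background filter for 21 genes, its sign differed from that of another probe of the gene in 3 of them (*Mrpl9*, *Mrpl27* and *Mrps33*), and no gene was called in both directions.

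Position on the slide moved with the groups. WT 1 and WT 3 lay in row 1 of the slide, and WT 2 and all IG27 arrays lay in row 2. A fit with the row as a block, which compares IG27 cells with WT 2, called 37 of the 53 genes in the same direction, did not call 16 and turned 0. The 16 included *Mrpl36*, *Mrpl46*, *Mrpl54*, *Mrps9*, *Mrps18a*, *Mrps18c* and *Mrps36*. It called 2 genes that the main fit did not. Of all 14898 genes in this fit 3942 were higher and 5005 were lower, beside 4546 and 5956 of 14899 in the main fit. The difference in this fit rests on WT 2 alone among the WT arrays. The row's part in the result was not tested beyond this fit. Under all 17 alternatives 34 genes were called in the same direction, 14 higher and 20 lower. Among these alternatives the 5 complete arrays and the fit without IG27 2 are the same fit. The 34 included *Mrpl1*, *Mrpl3*, *Mrpl4*, *Mrpl52*, *Mrpl57*, *Mrps10*, *Mrps16*, *Mrps18b*, *Mrps25* and *Mrps27*. The matching share over all genes was not counted.

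The changes of mitoribosomal genes varied with the chromosome on which each lies. All 3 on chromosome 9 (*Mrpl3*, *Mrpl4* and *Mrps22*) and both on chromosome 8 (*Mrpl34* and *Mrps31*) were lower, where the median of the other tested genes was -0.64 and -0.67 and 71.0% and 74.2% of tested genes were lower. All 3 on chromosome 14 (*Mrps16*, *Mrpl57* and *Mrpl52*) and all 4 on chromosome 2 (*Mrps26*, *Mrps5*, *Mrps2* and *Mrpl41*) were lower, with other genes at -0.28 and -0.34 and 49.7% and 57.8% of tested genes lower. On chromosome 17, where other genes were at 0.15 and 44.2% of tested genes were higher, 6 of 8 mitoribosomal genes were higher and 0 were lower, among them *Mrps10*, *Mrps18b* and *Mrps18a*. On chromosomes 4 and 7, with other genes at 0.33 and 0.13, 3 of 4 and 5 of 6 were higher and 0 were lower. *Mrpl16* on chromosome 19 was lower while *Mrpl11*, *Mrpl21*, *Mrpl43* and *Mrpl49* there were higher, with other genes at 0.18. Chromosome 16 went the other way, with 2 of 3 mitoribosomal genes lower (*Mrpl39* and *Mrps6*) and 0 higher while other genes were at 0.10.

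Across the 77 genes, the change of a gene and the median change of the other genes on its chromosome had Pearson's r of 0.707 and Spearman's rho of 0.713. Over 14894 genes with a known position these were 0.222 and 0.374. Genes on the same chromosome share nearly the same median, so the points are not independent and the values are descriptive. Within the large subunit r was 0.71 over 48 genes and within the small subunit 0.693 over 29 genes. Subtracting the chromosome's median lowered the standard deviation over the 77 genes from 0.50 to 0.37 and brought the medians of the subunits to 0.03 and -0.06. What lies behind the chromosome medians was not tested.

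**Figure D3:**
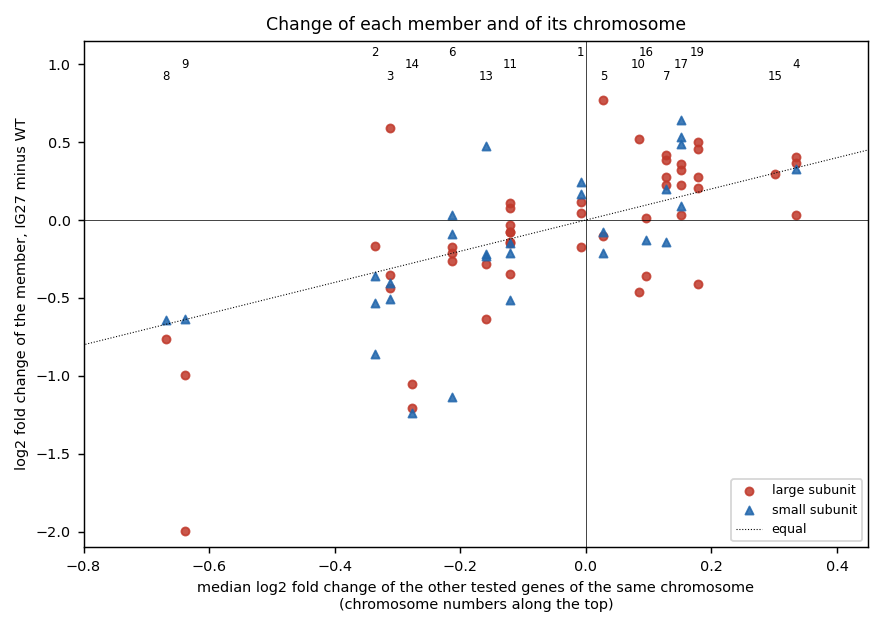
Log2 fold change of each mitoribosomal gene (vertical axis, IG27 minus WT) against the median log2 fold change of the other tested genes on its chromosome (horizontal axis), with chromosome numbers along the top, red circles for the large and blue triangles for the small subunit. Genes of chromosomes 8, 9, 14 and 2 lie below 0 and all of those on chromosome 17 above it; the dotted line marks equal values.

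Neighbors of the 5 falls beyond 2-fold also had medians below 0. The 20 tested genes nearest to *Mrpl3* had a median of -0.96 and 0 of them were above 0. Around *Mrps16* the median was -1.32 with 1 of 20 above 0, around *Mrpl52* it was -0.93 with 1 of 20, around *Mrps25* it was -0.91 with 5 of 20, and around *Mrpl57* it was -0.79 with 7 of 20. *Mrps27*, *Mrpl54* and *Mrpl49* went against their surroundings, rising where the neighbors' medians were -0.28, -0.39 and -0.18. *Mrpl16*, *Mrpl39*, *Mrpl42* and *Mrps24* fell where those medians were 0.17, 0.10, 0.25 and 0.01. The sign of a mitoribosomal gene was that of its neighbors' median for 55 of 77 genes (71.4%), beside 67.2% of all genes.

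Genes that share a start region with a mitoribosomal gene mostly had a difference of the same sign, passed or not. Pairs with starts at most 500 bases apart on opposite strands numbered 21 with both genes tested, and 19 of them (90.5%) had the same sign, beside 69.3% of all 713 such pairs. In 12 of the 21 both genes were called, and 11 of these went the same way. The same counts over all 713 pairs were not made, and 70.5% of all genes were called. Pairs such as *Mrpl14* with *Tmem63b* and *Mrpl40* with *Hira* were near 0 with neither gene called. *Mrpl46* and *Mrps11*, whose starts are 42 bases apart, were both higher, at 0.41 and 0.20. The call of *Mrps11* was close to the threshold (adjusted p = 0.046 from limma). It was lost without WT 2, WT 3, IG27 1 or IG27 3. *Mrpl57* and *Ska3*, a kinetochore protein, were both lower, at -1.21 and -1.46. *Mrpl43* and *Twnk*, the helicase of mitochondrial DNA, were both higher, at 0.20 and 0.83.

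Further pairs included genes of mitochondria and of the cytosolic ribosome. *Mrpl47* and the complex I subunit *Ndufb5* were lower at -0.44 and -1.28, and *Mrpl49* and *Fau*, which encodes a cytosolic ribosomal protein fused to a ubiquitin-like part, were higher at 0.50 and 0.20. *Mrpl37* and *Cyb5rl* were higher at 0.37 and 0.93. The 1 pair called in opposite directions was *Mrpl50*, at 0.41, and the zinc finger gene *Zfp189*, at -0.57. *Mrps12* at -0.14 did not pass the test while *Sars2*, the mitochondrial seryl-tRNA synthetase, was higher at 0.32. *Mrps27* was higher at 0.47 and *Ptcd2* was at 0.07 (SE 0.05) and did not pass.

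**Figure D4:**
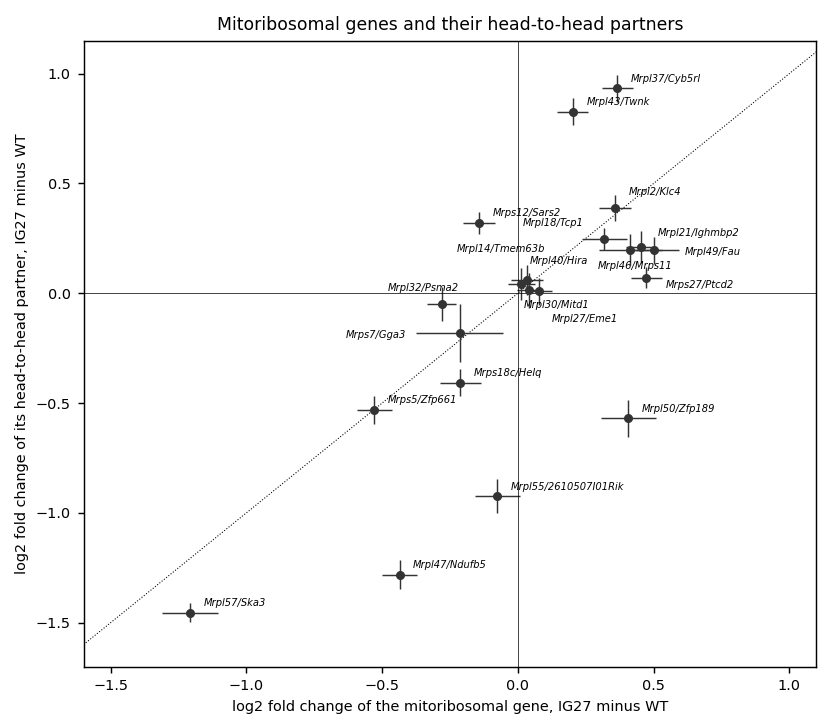
Log2 fold change (IG27 minus WT) of 21 mitoribosomal genes (horizontal axis) and of the gene that starts within 500 bases on the opposite strand (vertical axis), with standard errors as bars and a dotted line at equal values. All but *Mrpl50*/*Zfp189* and *Mrps12*/*Sars2* lie in the quadrants of equal sign, from *Mrpl57*/*Ska3* at the lower left to *Mrpl37*/*Cyb5rl* at the top.

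Promoter windows of 300 bases, 250 before the start and 50 from it on, were found in RefSeq for 69 of the 78 genes, which had 75 windows. The ETS or GABP core CCGGAAG, searched on both strands, was in 34.7% of these windows and in 8.86% of all 32851 windows. The NRF1 core GCATGCG was in 8 of the 75 windows against 3.58%, and the YY1 core AAGATGG, whose first letters can overlap the end of the ETS core, was in 17.3% against 6.34%. The direction of change was mixed among genes with a match. Of the 26 genes with the ETS core 8 were higher and 12 were lower, with a median of -0.14. Of the 42 tested genes without it 13 were higher and 15 were lower, with a median of -0.05. Among all genes 30.5% were higher and 40.0% were lower. The medians with and without the NRF1 core were -0.12 and -0.08, and with and without the YY1 core -0.18 and -0.08. Of the factors themselves, *Gabpb1* and *Nrf1* RNA was lower in IG27 cells, both at -0.51. *Gabpa* was at 0.00 and *Yy1* at 0.12, and neither passed the test.

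Other genes of mitochondrial translation, taken with those of mitochondrial DNA and the nuclear regulators below, were called at shares near those of all genes. This holds for the pooled genes, and the separate lists varied. Of 82 listed genes, 24 were higher (29.3%, beside 30.5% of all genes) and 30 were lower (36.6%, beside 40.0%), with a median of 0.02, and quantile normalization gave 36 higher and 30 lower. Among 5 mitoribosomal proteins without a number, *Gadd45gip1* at -0.69 and *Chchd1* at -0.52 were lower and *Aurkaip1* was higher at 0.33. Among 14 translation factors 3 were higher (21.4%) and 5 were lower (35.7%). The peptide release factor *Mtrf1l* at 1.23, the initiation factor *Mtif3* at 1.03 and the mRNA-binding *Lrpprc* at 0.92 were higher, and *Mtfmt*, which formylates the initiator tRNA, was lower at -0.87.

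Among 26 genes of mitoribosome assembly and ribosomal RNA modification 8 were higher (30.8%, beside 30.5% of all genes) and 13 were lower. With 80.8% called, beside 70.5% of all genes, this list lay above the background, and its falls outnumbered its rises. Of all genes 40.0% were lower. The difference from all genes was not tested. The helicases *Ddx28* at -0.90 and *Dhx30* at -0.86 were the largest falls, and *Tfb1m*, which methylates the RNA of the small subunit, was the largest rise at 0.77. Among 20 aminoacyl-tRNA synthetases and amidotransferase subunits 8 were higher (40.0%) and 5 were lower, 65.0% called in all. The 3 subunits of the glutaminyl-tRNA amidotransferase diverged, with *Gatb* at -2.93 and *Qrsl1* and *Gatc* at 1.21 and 0.29. *Gatb* read 5.02, 5.06 and 5.10 in WT cells and 2.01, 2.11 and 2.26 in IG27 cells (adjusted p = 5.81e-07 from limma).

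Genes for the copying and transcription of mitochondrial DNA gave 2 rises and 2 falls of 8, beside 30.5% and 40.0% of all genes. The rises were *Twnk* at 0.83 and the transcription factor *Tfam* at 0.25, and the falls were *Polg2* at -0.60 and *Polrmt* at -0.24. Among 9 nuclear regulators of mitochondrial genes 2 were higher (22.2%), *Ppargc1b* at 2.11 and *Myc* at 1.19. Another 3 were lower (33.3%), *Ppargc1a* at -0.52 with *Nrf1* and *Gabpb1*.

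The cytosolic ribosome and the nuclear part of the respiratory chain, which works with the products of the mitoribosome, were read in the same arrays. Of 84 tested cytosolic ribosomal protein genes 15 were higher and 18 were lower (39.3% called, beside 70.5% of all genes), with a median of -0.04, and under quantile normalization 28 and 17. Of 82 tested nuclear genes of the respiratory chain and ATP synthase 9 were higher and 37 were lower (45.1%, beside 40.0% of all genes), 56.1% called in all, with a median of -0.14, and under quantile normalization 17 and 35. The interquartile range of log2 fold changes was 0.60 for mitoribosomal genes, 0.30 for cytosolic ribosomal protein genes, 0.62 for the respiratory chain and 0.91 for all genes. These are descriptions, and the differences between the groups were not tested.

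**Figure D5:**
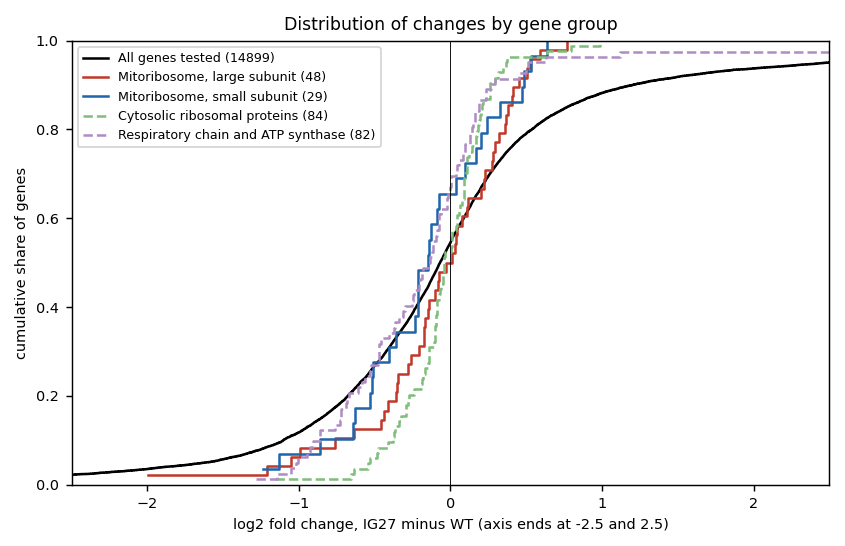
Cumulative share of genes (vertical axis) at or below each log2 fold change (horizontal axis, IG27 minus WT, with the tails of all genes cut off) for all tested genes, both mitoribosomal subunits, cytosolic ribosomal proteins and the respiratory chain with ATP synthase. The curve of all genes is the widest, with an interquartile range of 0.91, that of the cytosolic ribosome is the steepest, and the small subunit lies to the left of the large subunit over most of the range below 0.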

How the data were processed

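The authors scanned 6 single-color arrays and read each spot with Agilent Feature Extraction (version 9.1 in the submitters' processing notes, 10.7.3.1 in the file headers). The deposited intensity values are processed signals on a linear scale, without scaling between arrays, and the other columns used are the software's flags for background, saturation and outlier spots. No spot was saturated, and 58.8% to 61.2% of 56605 probes were well above background on the 5 arrays with this flag. The scanner output of IG27 2 ends after 285 spots, so its values came from the deposited value table, which held the same values as the complete scanner files (relative difference at most 1e-04). Its columns for WT 2 and 3 hold each other's values, and the labels of the scanner files were kept. The number of arrays limits the precision.

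Values were log2 of the processed signal minus each array's 75th percentile, with outlier spots left out. Probes were named through RefSeq accessions with a GRCm38.p6 table, which also gave chromosomes, neighbors and promoters. The array design is built on another assembly, so no probe coordinates were used. Probes were kept if they were well above background on every flagged array of at least 1 group. The brightest kept probe stood for a gene, and genes without a kept probe were not tested. Differences were tested with limma (version 3.58.1, R 4.3.3; lmFit and eBayes, two-sided, Benjamini-Hochberg over all 14899 genes, threshold 0.05), after the steps were tested on simulated data. Correlations across arrays were 0.994 to 0.997 within and 0.902 to 0.905 between groups. The members follow a rule on symbols, but this gene family, the lists, roles and comparisons were chosen with earlier results of these data known. In each subunit the 6 largest called rises and falls without overlap were named, with the *Mrps18* paralogs, *Mrps30*, *Mrps36*, *Mrpl58*, *H3f3a* and the largest called rise and fall of each pathway list. Other genes were named after their values were seen. Genes such as *Rps6ka1*, which match the pattern for cytosolic ribosomal proteins but encode kinases, were removed from that list. Alternatives were quantile normalization, normexp correction of the processed signal, other filters and probe rules, 5 complete arrays, eBayes with trend, replicate or slide row as a block, unadjusted p, and each array left out.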

Additional observations from a re-analysis of the deposited data

How the results depend on the processing

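No called mitoribosomal gene turned direction under the 17 alternatives, and the counts of called genes stayed within 1.5 times for both subunits except the lower genes of the small subunit, 9 with the slide row as a block against 14. Quantile normalization moved the medians of the large and small subunit to 0.101 and -0.0192, gave 28 higher cytosolic ribosomal protein genes against 15 and 17 higher respiratory chain genes against 9, lost the calls of *Mrpl22*, *Mrpl41*, *Mrpl53*, *Mrps6*, *Mrps18c*, *Mrps23* and *Mrps36*, and reversed *Mrpl58* to 0.0542. The slide row as a block gave 9 higher cytosolic ribosomal protein genes. Subtracting chromosome medians, chosen after seeing the data, moved the small subunit's median to -0.058. The cause of these shifts was not tested. Leaving out 1 array at a time gave 8 to 16 higher cytosolic ribosomal protein genes (8 without IG27 1 and without IG27 3), and in mitoribosomal genes 13 to 16 higher and 13 to 17 lower in the large subunit, 5 to 7 higher and 10 to 13 lower in the small subunit, and medians of -0.05 to 0.02 and -0.18 to -0.12. Each array left out lost 7 to 9 calls among *Mrpl22*, *Mrpl41*, *Mrpl43*, *Mrpl46*, *Mrpl48*, *Mrpl53*, *Mrpl54*, *Mrps6*, *Mrps11*, *Mrps15*, *Mrps18c*, *Mrps23* and *Mrps36*.

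The replicate numbers were not used to pair the arrays. Same-numbered WT and IG27 arrays had correlations of their deviations of 0.012, 0.039 and 0.076, beside -0.094 to 0.059 for other combinations. Deviations from means of so few arrays cannot show whether the numbers pair them. With replicate number as a block, 16 large subunit genes were higher and 14 lower, 7 small subunit genes were higher and 13 lower, and *Mrpl22*, *Mrpl41*, *Mrpl53*, *Mrps6* and *Mrps23* no longer passed. Genes below background, *Mrpl35* among them, have no measured difference.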
